A study of Mus musculus with 14 samples.

Results

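Cebpa, Cebpb, Cebpd, Cebpe, Cebpg, Spi1, Gfi1, Mpo and Csf3r are 9 mouse genes of granulocyte commitment. They encode C/EBP transcription factors, the Ets factor PU.1 (Spi1), the repressor Gfi1, the granule enzyme myeloperoxidase (Mpo) and the receptor for granulocyte colony-stimulating factor (Csf3r). They were taken by gene symbol from the platform annotation, with every probe set that carries the symbol, among 18193 genes and 45101 probe sets in all. Of the 9 genes, 8 had a probe set, 12 probe sets in total, and Cebpe was not analysed here. RNA of embryonic blood at E12.5 had been hybridised to Affymetrix mouse arrays. Embryos carrying 1 allele of the Cbfb-MYH11 fusion (Cbfb+/MYH11, 4 arrays) were set against wild-type embryos of the same cross with C57/Bl6 mice (WT, 4 arrays). Embryos homozygous for the Cbfb null allele (Cbfb-/-, 3 arrays) were set against Cbfb+/+ embryos (3 arrays) of matings between Cbfb+/- mice. Each sample was blood from 8 to 10 embryos. The labels give no treatment, Cre, promoter or cell sort. They name the arrays within a group technical replicates, and every p-value here covers array-to-array spread alone.

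Core binding factor joins a Runx protein, which binds DNA, with Cbfb, which stabilises that binding. The fusion of Cbfb with a smooth muscle myosin drives one type of human acute myeloid leukaemia. In the adult mouse, C/EBP alpha and PU.1 direct myeloid progenitors, C/EBP alpha being needed for the granulocyte and monocyte progenitor and PU.1 for myeloid and B lymphoid cells. Gfi1, C/EBP epsilon and the granule proteins mark later steps of the neutrophil path. The comparison asks how these genes stood in the blood of embryos with either lesion of Cbfb.

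The promoter windows of the 3 genes named below are shown because Cebpa and Cebpg were higher in Cbfb+/MYH11 blood and lie close together on chromosome 7, while Mpo was lower in both mutants. Each is the 250 bases before the annotated start in RefSeq (GRCm38.p6), written 5′ to 3′ on the strand of the gene. Cebpa lies at chr7:35119043-35119292 on the plus strand, Cebpg at chr7:35056567-35056816 on the minus strand, and Mpo at chr11:87793534-87793783 on the plus strand. Capitals mark a PU.1 motif (GAGGAAG) or a C/EBP half-site (ATTGC), searched on both strands.
Cebpa: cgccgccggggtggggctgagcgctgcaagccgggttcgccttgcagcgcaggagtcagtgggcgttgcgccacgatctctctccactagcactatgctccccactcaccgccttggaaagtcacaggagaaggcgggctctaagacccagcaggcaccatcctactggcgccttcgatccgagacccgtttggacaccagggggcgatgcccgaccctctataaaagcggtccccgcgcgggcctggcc
Cebpg: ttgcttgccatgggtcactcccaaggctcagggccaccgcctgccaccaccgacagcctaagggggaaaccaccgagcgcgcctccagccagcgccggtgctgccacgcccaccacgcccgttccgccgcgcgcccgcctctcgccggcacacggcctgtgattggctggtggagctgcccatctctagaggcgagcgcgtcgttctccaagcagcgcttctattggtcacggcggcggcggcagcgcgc
Mpo: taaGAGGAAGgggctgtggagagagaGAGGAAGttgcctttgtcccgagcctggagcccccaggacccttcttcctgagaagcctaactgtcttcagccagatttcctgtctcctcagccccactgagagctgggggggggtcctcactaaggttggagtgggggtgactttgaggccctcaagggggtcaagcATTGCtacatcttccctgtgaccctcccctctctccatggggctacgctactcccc
Neither motif occurred in the Cebpa or Cebpg window, whose GC content was 66.4% and 70.8%. The Mpo window held GAGGAAG at 247 to 241 and at 224 to 218 bases before the start, and ATTGC at 56 to 52 bases before it. Windows were available for 6 of the 9 genes, 7 windows in all because Gfi1 has 2 starts. The core binding factor motif TGTGGT was in 0 of the 7, GAGGAAG in 2 and ATTGC in 3. Over all 32851 promoter windows of the same length, 14% held TGTGGT, 10.6% held GAGGAAG and 23.1% held ATTGC. These matches describe letters in short windows and say nothing on binding. Between Cebpg and Cebpa the RefSeq table lists only the protein-coding model Gm45095 and the long noncoding RNA Gm35611.

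The deposited values are log2 RMA levels, and the array medians lay between 4.27 and 4.46. A probe set is called dim here when it was under log2 6 on every array. Of the 12 probe sets, 6 were dim, and 4 passed the filter of log2 6 or more on at least 3 of the 14 arrays, 1 each of Cebpa, Cebpg, Spi1 and Mpo. A gene is said to have risen or fallen when limma's moderated test over the 7392 genes past that filter gave a Benjamini-Hochberg adjusted p under 0.05 and the change was at least 1.5-fold. In the fusion cross, arrays 1 and 2 of a genotype, and arrays 3 and 4, lay close together (SD of log2 differences 0.114 to 0.276 over genes) and apart from the other pair (0.365 to 0.714), so values are also given within these array pairs. Cbfb itself, read by 1 probe set, was at 8.44, 8.56, 6.91 and 7.06 on the Cbfb+/MYH11 arrays and at 6.62, 6.57, 8.31 and 8.14 on the WT arrays. It was at 7.03, 6.80 and 6.98 on the Cbfb-/- arrays and at 6.52, 6.56 and 6.27 on the Cbfb+/+ arrays. The probe set was thus not lower in Cbfb-/- blood, and it changed sides between the array pairs. Whether it reads the disrupted part of the gene is not given in the sources used here, so it does not check the labels. Red cell markers, with 8 of 10 genes past the filter, averaged 11.42 to 11.65 on Cbfb+/MYH11 arrays, 11.25 to 11.38 on WT arrays, 11.28 to 11.34 on Cbfb-/- arrays and 11.49 to 11.53 on Cbfb+/+ arrays, the brightest of the marker lists in each group.

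**Figure D1:**
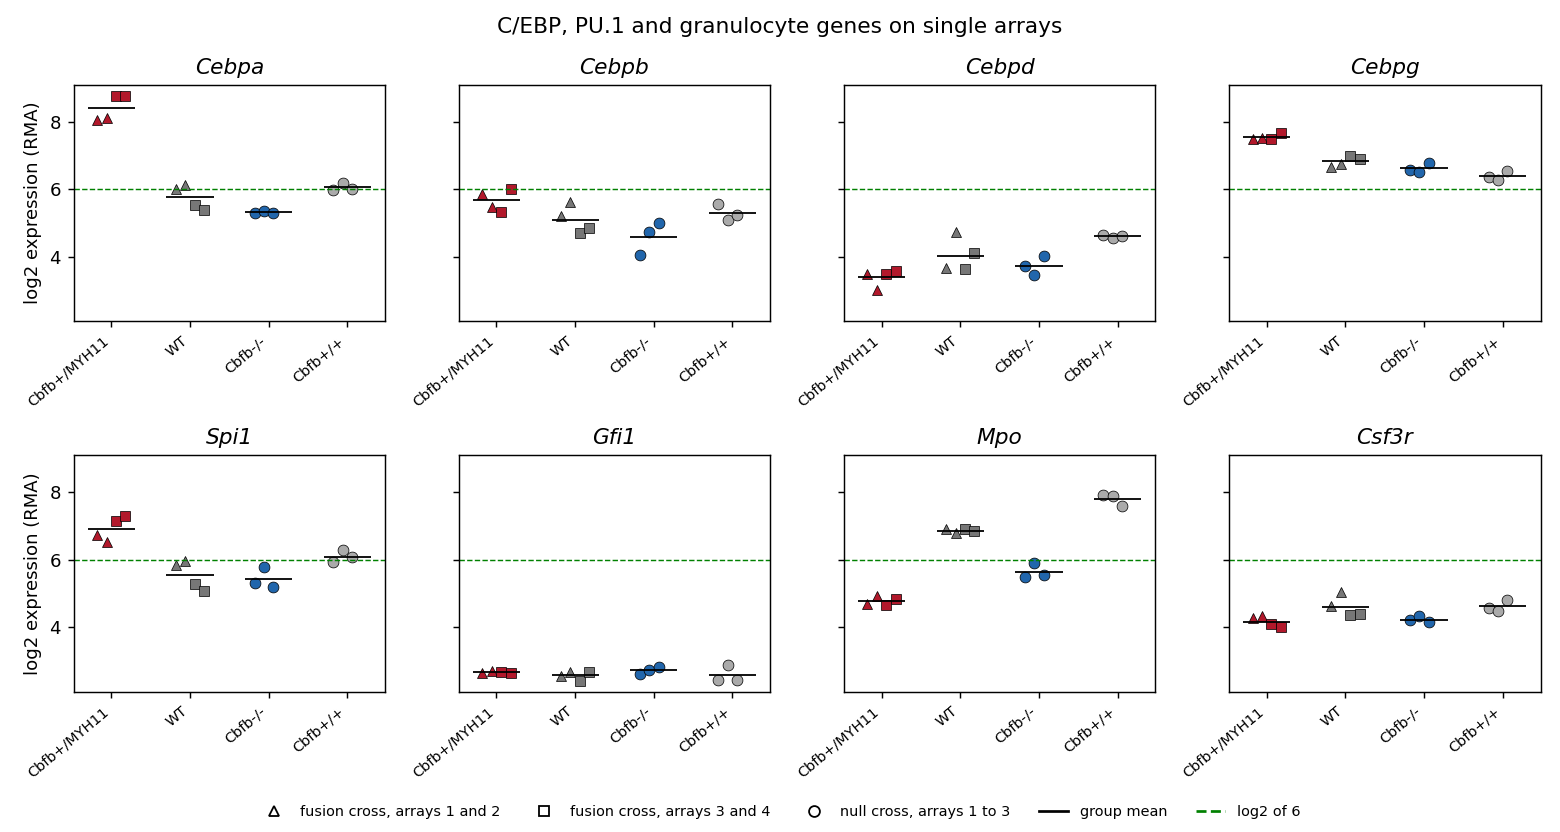
Log2 RMA level (vertical axis) of each member's brightest probe set on every array, by group, with points for arrays and bars for the group mean. Cebpa lies between 8.04 and 8.77 on the Cbfb+/MYH11 arrays, above every WT array, and Mpo lies lower in both mutants than in their littermates.

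Cebpa, the gene of C/EBP alpha, had the largest change of the 4 tested genes in Cbfb+/MYH11 blood. Its level was 8.04, 8.10, 8.75 and 8.77 on the Cbfb+/MYH11 arrays, against 6.01, 6.12, 5.55 and 5.399 on the WT arrays. On the arrays of the null cross it was 5.31, 5.36 and 5.29 in Cbfb-/- blood, against 5.98, 6.19 and 6.02 in Cbfb+/+ blood. All Cbfb+/MYH11 arrays were thus above all WT arrays, while all Cbfb-/- arrays were below all Cbfb+/+ arrays. Among all genes tested, 39.5% had every Cbfb+/MYH11 array above every WT array, and 25% had every Cbfb-/- array below every Cbfb+/+ array. The mean was 8.41 ± 0.40 in Cbfb+/MYH11 and 5.77 ± 0.35 in WT blood (SD, n = 4 each), a rise of 2.64 on the log2 scale or 6.24-fold (95% interval 4.67 to 8.35, limma adjusted p = 3.63e-07). It was 5.32 ± 0.03 in Cbfb-/- and 6.06 ± 0.11 in Cbfb+/+ blood (SD, n = 3 each), where Cebpa fell by 0.74 on the log2 scale (interval -1.23 to -0.26, limma adjusted p = 0.0186). This fall rests on few arrays: without Cbfb-/- array 1, Cbfb-/- array 3 or Cbfb+/+ array 2 the limma adjusted p was 0.05001, 0.0515 or 0.0622. The effects in the 2 mutants differed by 3.39 (interval 2.75 to 4.03, limma adjusted p = 4.84e-06).

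Spi1, the gene of PU.1, followed the same order with smaller steps. Levels were 6.72, 6.53, 7.13 and 7.28 on the Cbfb+/MYH11 arrays, against 5.84, 5.95, 5.27 and 5.08 on the WT arrays. They were 5.31, 5.79 and 5.19 on the Cbfb-/- arrays, against 5.91, 6.29 and 6.06 on the Cbfb+/+ arrays. Neither pair of groups overlapped, with the fusion arrays above and the null arrays below their littermates. Among all tested genes, 39.5% were apart in that way in the fusion cross and 25% in the null cross. Only 2 arrays outside Cbfb+/MYH11 reached log2 6, so Spi1 passed the filter through the group in which it was high, and a difference there is built into its being tested. Spi1 rose by 1.38 in Cbfb+/MYH11 blood, or 2.60-fold (95% interval 1.86 to 3.63, limma adjusted p = 0.000198). Its value in Cbfb-/- blood was -0.66 (interval -1.21 to -0.10, limma adjusted p = 0.0535), just short of the threshold. It passed under 9 of the 23 other settings that tested it, among them quantile normalization (-0.79, limma adjusted p = 0.0287). Some of the 9, such as leaving out an array of the fusion cross, kept the value at -0.66. The 9 settings are thus not separate support for a fall. The effects differed between the mutants by 2.04 (interval 1.30 to 2.77, limma adjusted p = 0.000781).

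Cebpg encodes a short C/EBP protein that pairs with other members of the family and lacks a strong activation domain. Its brightest probe set was at 7.50, 7.51, 7.49 and 7.65 on the Cbfb+/MYH11 arrays, against 6.66, 6.76, 6.996 and 6.90 on the WT arrays. In the null cross it was at 6.58, 6.52 and 6.79 in Cbfb-/- blood, against 6.37, 6.27 and 6.53 in Cbfb+/+ blood. The groups were apart in the fusion cross, as for 39.5% of all tested genes in that direction, and overlapped in the null cross. Cebpg rose by 0.71 in Cbfb+/MYH11 blood, or 1.63-fold (95% interval 1.41 to 1.89, limma adjusted p = 5.81e-05). Over all tested genes the median shift was 0.26, and Cebpg lay 0.45 above it. With quantile normalization, where that median was -0.04, the rise of Cebpg came to 0.35 and missed the fold limit (limma adjusted p = 0.00421). In Cbfb-/- blood its value was 0.24 (interval -0.01 to 0.48, limma adjusted p = 0.101), which did not pass. The difference between the effects was 0.47 (interval 0.15 to 0.79, limma adjusted p = 0.0333) and missed the fold limit. A second probe set gave 5.98 ± 0.39 in Cbfb+/MYH11 and 5.28 ± 0.15 in WT blood (SD, n = 4 each), with no overlap, where 13.9% of all probe sets had every Cbfb+/MYH11 array above every WT array. The remaining one was dim, at 2.98 to 3.44 over the 14 arrays, with no gap between groups. Across the 14 arrays the brightest probe set had a Pearson correlation of 0.904 with the second and of 0.384 with the dim one.

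Mpo, the peroxidase of the primary granules, was lower in both mutants. It was at 4.69, 4.91, 4.66 and 4.84 on the Cbfb+/MYH11 arrays, against 6.91, 6.77, 6.90 and 6.84 on the WT arrays. It was at 5.49, 5.89 and 5.54 on the Cbfb-/- arrays, against 7.92, 7.88 and 7.58 on the Cbfb+/+ arrays. Every mutant array was under log2 6 and every littermate array above it, so Mpo was tested only through the littermates. Of all tested genes 13.6% had every Cbfb+/MYH11 array below every WT array, and 25% had every Cbfb-/- array below every Cbfb+/+ array. Mpo fell by 2.08 in Cbfb+/MYH11 blood, a size of 4.23-fold (95% interval 3.59 to 4.98, limma adjusted p = 2.21e-08), and by 2.15 in Cbfb-/- blood, a size of 4.44-fold (3.67 to 5.36, limma adjusted p = 1.23e-06). Because RMA compresses differences near the background, these falls of a gene under log2 6 in the mutants may be understated. The effects in the 2 mutants differed by 0.07 (interval -0.29 to 0.43, limma adjusted p = 0.802), and that interval covers array-to-array spread alone.

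Read as counts, 3 of the 4 tested genes rose and 1 fell in Cbfb+/MYH11 blood, where 30.5% of all tested genes rose and 5.63% fell. In Cbfb-/- blood 0 rose and 2 fell, where 19.5% of all tested genes rose and 6.66% fell. With so common a rise over all genes, the 3 rises are no result about these genes as a group. The difference between the mutants was called for 2 of the 4, Cebpa and Spi1, both higher in the fusion, against 14.9% of all tested genes called in that direction and 6.07% in the other. Fewer cells of a type and less RNA per cell cannot be told apart in bulk blood, and this holds for each value here.

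The other members were read only by probe sets below the filter, which were tested in the same limma model over all 45037 probe sets that are not array controls. In that fit 10.5% of probe sets rose and 2.94% fell in Cbfb+/MYH11 blood, and 6.66% rose and 3.03% fell in Cbfb-/- blood. Of the 12 probe sets of the members, 4 rose and 2 fell in Cbfb+/MYH11 blood, and 0 rose and 3 fell in Cbfb-/- blood. Cebpb encodes C/EBP beta, which sustains granulocyte output under stress in the mouse. Its brighter probe set was at 5.88, 5.48, 5.35 and 6.003 on the Cbfb+/MYH11 arrays, against 5.23, 5.62, 4.72 and 4.86 on the WT arrays, and the groups overlapped. It was at 4.05, 4.74 and 5.00 in Cbfb-/- blood, against 5.57, 5.11 and 5.26 in Cbfb+/+ blood. All null arrays were thus below, as for 21.2% of all probe sets. The changes of 0.57 and -0.72 did not pass (limma adjusted p = 0.0813 and 0.0854). The difference between them, 1.28, did (limma adjusted p = 0.0353), where 4.72% of all probe sets were called above 0 and 2.8% below. Within the array pairs the fusion value of this probe set was 0.26 in arrays 1 and 2, not called (limma adjusted p = 0.493). In arrays 3 and 4 it was 0.88 and called (limma adjusted p = 0.0311). The second Cebpb probe set was dim, at 4.62 ± 0.17 in Cbfb+/MYH11 and 4.76 ± 0.19 in WT blood (SD, n = 4 each), and its correlation with the first was 0.036 over the 14 arrays, so the 2 probe sets do not give 1 pattern.

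Cebpd encodes C/EBP delta, a family member active in later granulocyte stages. Its brighter probe set, dim on all arrays, was at 3.50, 3.02, 3.52 and 3.58 in Cbfb+/MYH11 blood, against 3.68, 4.73, 3.65 and 4.13 in WT blood. It was at 3.75, 3.48 and 4.03 in Cbfb-/- blood, against 4.67, 4.58 and 4.63 in Cbfb+/+ blood. Both mutants lay below their littermates, with falls of 0.64 and 0.87 on the log2 scale (limma adjusted p = 0.0361 and 0.0267). In the fusion the call was lost with quantile normalization (-0.52, limma adjusted p = 0.110) and with arrays centred on their medians (-0.53, limma adjusted p = 0.0906). Within the array pairs the fusion value was -0.94 in arrays 1 and 2, called (limma adjusted p = 0.0137). In arrays 3 and 4 it was -0.34 and not called (limma adjusted p = 0.417). The second Cebpd probe set gave -0.28 and -0.02 and was not called. Csf3r, the receptor that carries the granulocyte growth signal, was dim at 4.26, 4.33, 4.09 and 4.00 on Cbfb+/MYH11 arrays, against 4.63, 5.05, 4.37 and 4.4 on WT arrays. It was at 4.21, 4.32 and 4.15 on Cbfb-/- arrays, against 4.56, 4.49 and 4.80 on Cbfb+/+ arrays. Its arrays too lay below those of the littermates in both mutants, where 12.1% of all probe sets did so in the fusion and 21.2% in the null. The differences of -0.44 and -0.39 were not called, since the first was under the fold limit (limma adjusted p = 0.0351) and the second missed the test (0.132). Gfi1, the repressor that neutrophil precursors need, was at 2.68 ± 0.03 in Cbfb+/MYH11 and 2.59 ± 0.13 in WT blood (SD, n = 4 each), and at 2.74 ± 0.11 in Cbfb-/- and 2.60 ± 0.26 in Cbfb+/+ blood (SD, n = 3 each). Its mean exceeded only 8.37% of probe sets, and no level can be read from it.

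**Figure D2:**
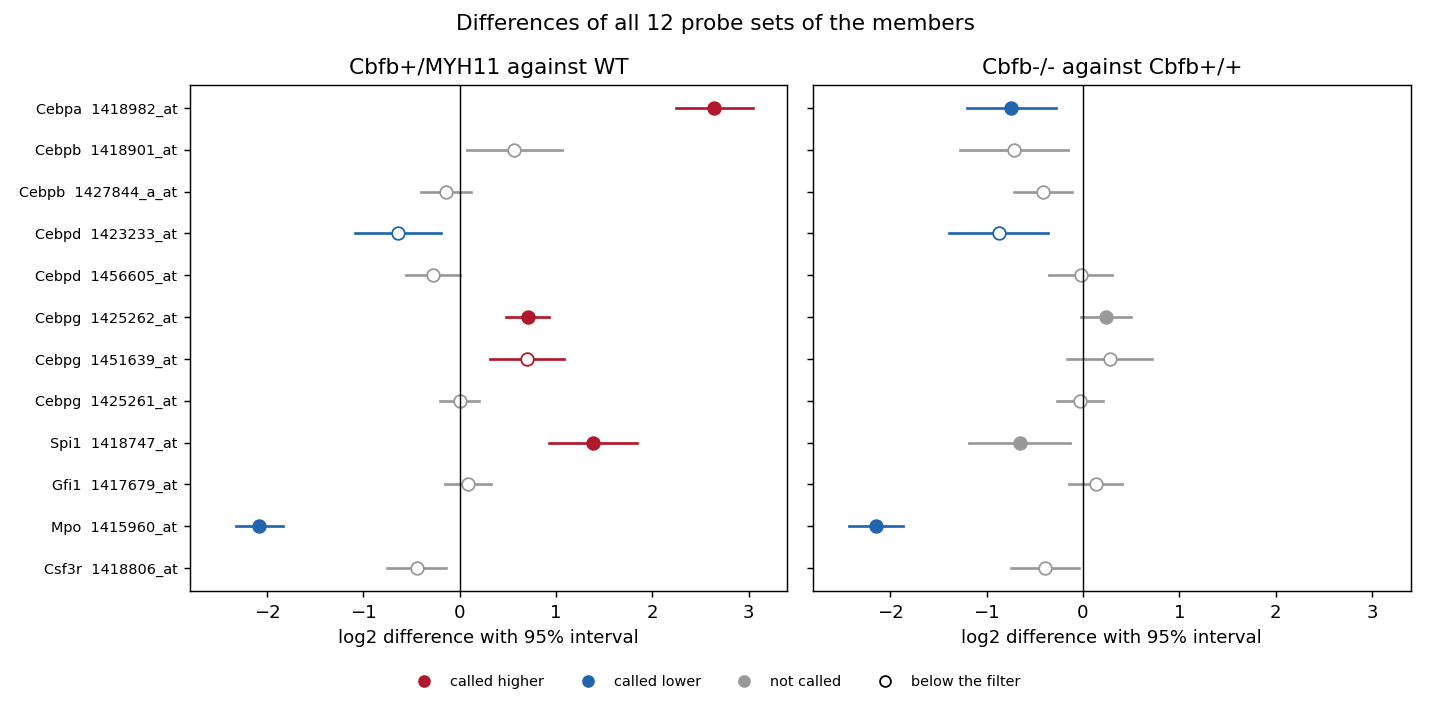
Log2 difference between mutant and littermates (horizontal axis) with 95% intervals for each of the 12 probe sets, Cbfb+/MYH11 against WT and Cbfb-/- against Cbfb+/+, from the limma fit over all probe sets. Cebpa and Spi1 lie on opposite sides of 0 in the mutants, and Mpo lies near -2 in both.

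Within the array pairs of the fusion cross, Cebpa was higher by 2.00 in arrays 1 and 2 and by 3.28 in arrays 3 and 4, a gap of 1.28 (limma adjusted p = 1.35e-05). For Spi1 the values were 0.73 and 2.03, a gap of 1.30 (limma adjusted p = 0.00169). Cebpg gave 0.79 and 0.62, and Mpo -2.04 and -2.12, and neither gap passed (limma adjusted p = 0.486 and 0.830). All 4 genes were called in both pairs. In arrays 1 and 2, 37% of all tested genes rose and 7.63% fell, and in arrays 3 and 4, 24.6% rose and 6.44% fell. The gap between the pairs was called above 0 for 4.34% of genes and below 0 for 15.2%. The sizes for Cebpa and Spi1 thus depended on the pair, and those of Mpo differed by -0.08 without passing the test. With quantile normalization the rise of Spi1 in arrays 1 and 2 came to 0.50 and missed the fold limit, as did Cebpg in both pairs (0.39 and 0.31). The p-values of these fits rest on the spread within pairs alone.

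**Figure D3:**
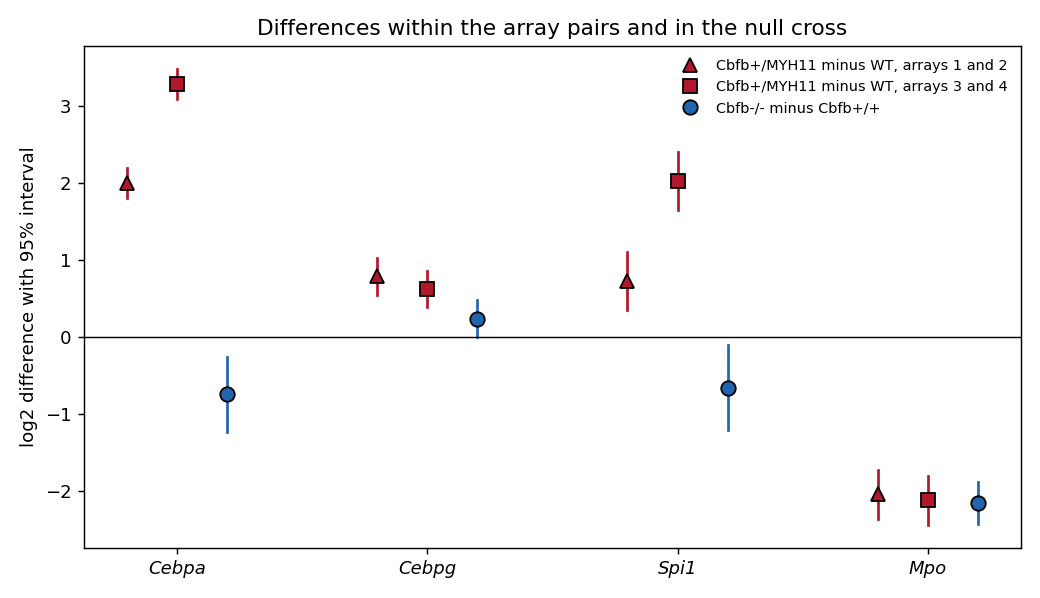
Log2 difference of Cbfb+/MYH11 from WT within arrays 1 and 2 and within arrays 3 and 4 for the 4 tested genes, with 95% intervals. Cebpa and Spi1 lie higher in arrays 3 and 4, and Cebpg and Mpo lie near the same value in both.

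If each array pair of the fusion cross, and each group of the null cross, was 1 RNA pool, the 14 arrays were 6 samples. Averaged in that way, Cebpa, Cebpg, Spi1 and Mpo in Cbfb+/MYH11 blood had limma adjusted p = 0.0792, 0.125, 0.121 and 0.0554, and 0 of the 4 were called in any comparison. In that fit a group with 1 pool is assumed to vary like the others. Over all tested genes 18 were called in Cbfb+/MYH11 blood, with 2152 at an unadjusted p under 0.05.

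Over the 14 arrays, Cebpa had a Pearson correlation of 0.934 with Spi1, 0.834 with Cebpg and -0.635 with Mpo, and Spi1 one of -0.458 with Mpo. These describe 14 arrays that may share pools and that fall into 4 groups, and carry no test. The 5 tested genes closest to Cebpa in pattern were Flot1 (r = 0.994), Smpdl3a and Alox5 (0.990 each), Ms4a2 (0.986) and Ddc (0.985). Alox5, which makes leukotrienes, differed by 2.62 in Cbfb+/MYH11 and by -0.42 in Cbfb-/- blood. Ms4a2, a subunit of the IgE receptor of mast cells and basophils, differed by 4.83 and -0.55. Those closest to Spi1 were Srgn (0.961), the proteoglycan of secretory granules, H2-D1 (0.950), Pcgf5 (0.945), Ostf1 (0.939) and Fcgr3 (0.937). For Cebpg they were Dnajc8 (0.982), Sacm1l (0.976), Vcpkmt (0.976), Trappc8 (0.973) and Sbno1 (0.973), with differences of 0.51 to 0.91 in Cbfb+/MYH11 blood. Those closest to Mpo were Trim13 (0.976), Grina (0.957), Cnnm1 (0.955), Pced1b (0.951) and Slc48a1 (0.948), and each was lower in both mutants by its group means.

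Of 10 primary granule genes, 8 had a probe set, and Mpo was the one past the filter. The other 7 were under log2 6 on every array, among them the proteases Elane, Prtn3 and Ctsg, named here as untested examples. Elane was at 4.69 ± 0.10 in Cbfb+/MYH11 and 5.11 ± 0.31 in WT blood (SD, n = 4 each), and at 4.74 ± 0.14 in Cbfb-/- and 4.92 ± 0.09 in Cbfb+/+ blood (SD, n = 3 each). Median differences over the 8 were -0.41 in the fusion and -0.37 in the null, beside -0.11 and -0.07 over all probe sets. Of 16 secondary granule and late neutrophil genes 14 had a probe set, 12 were under log2 6 on every array and 1, the integrin subunit gene Itgb2l, was tested. Itgb2l gave -0.19 in Cbfb+/MYH11 blood (limma adjusted p = 0.240) and 0.03 in Cbfb-/- blood (0.876). Median differences over the 14 were -0.16 in the fusion and -0.24 in the null. Of the genes of these lists with a probe set, all but Mpo and Itgb2l failed the filter, and neither of these was called higher. Whether other granule genes rose beside Cebpa and Spi1 was therefore not tested. Mmp9 and S100a8, named after their values were seen, failed the filter and differed in direction. Mmp9 was at 5.81, 5.91, 6.09 and 6.01 on the Cbfb+/MYH11 arrays, against 5.44, 5.52, 5.17 and 5.05 on the WT arrays. S100a8 was at 3.39, 3.37, 3.58 and 3.82 on the Cbfb+/MYH11 arrays, against 5.00, 4.93, 5.05 and 5.17 on the WT arrays. In the null cross S100a8 was at 4.36 ± 0.28 in Cbfb-/- and 5.32 ± 0.17 in Cbfb+/+ blood (SD, n = 3 each). Of all probe sets 13.9% had every Cbfb+/MYH11 array above every WT array, and 12.1% had every one below.

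Of 21 symbols listed for receptor and phagocyte genes with reported regulation by PU.1 or C/EBP, 19 had a probe set and 9 were tested. Emr1 and Adgre1 in that list name the same gene. Of the 9, 2 rose, 1 fell and 6 were not called in Cbfb+/MYH11 blood, and 7 fell and 0 rose in Cbfb-/- blood. Over all tested genes, 30.5% rose and 5.63% fell in the fusion, and 19.5% rose and 6.66% fell in the null. The median difference of the 9 was 0.23 in the fusion and -1.35 in the null, beside 0.26 and 0.13 over all tested genes. Over all 19 it was -0.31 and -0.68. Fcgr3, a receptor for immunoglobulin G, was at 8.56 ± 0.47 in Cbfb+/MYH11 and 6.29 ± 1.09 in WT blood (SD, n = 4 each), and rose by 2.27 (limma adjusted p = 0.000484). In Cbfb-/- blood it fell by 1.95 (limma adjusted p = 0.00736). Itgb2, the beta chain of the leukocyte integrins, rose by 2.16 in Cbfb+/MYH11 blood and fell by 1.35 in Cbfb-/- blood (limma adjusted p = 4.35e-05 and 0.00735). Tyrobp, an adaptor of activating receptors, fell in both, by 2.34 and 2.35 (limma adjusted p = 0.000248 and 0.00206). Outside the Cbfb+/+ arrays Tyrobp reached log2 6 on only 2 arrays, so it passed the filter through a littermate group. Btk, a kinase of B cell and myeloid receptor signalling, gave 0.08 in the fusion (limma adjusted p = 0.745) and fell by 1.07 in the null (limma adjusted p = 0.00342). The effect differed between the mutants for 6 of the 9, all higher in the fusion, where 14.9% of all tested genes were called so. In arrays 1 and 2 the median of the 9 was -0.34 and in arrays 3 and 4 it was 0.69, so their place in the fusion followed the array pair. Csf1r, the macrophage growth factor receptor, named after its values were seen, gave -1.08 in arrays 1 and 2 and 1.53 in arrays 3 and 4, both called.

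**Figure D4:**
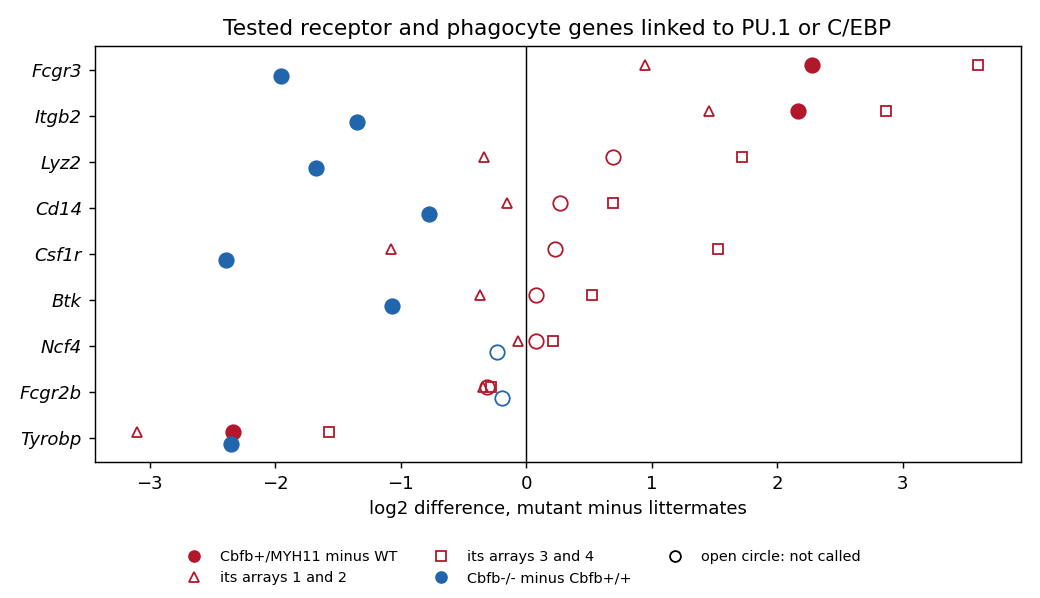
Log2 difference of each tested receptor and phagocyte gene in Cbfb+/MYH11 against WT and in Cbfb-/- against Cbfb+/+ littermates. The null values lie below 0 for all 9 genes, and the fusion values of Fcgr3 and Itgb2 lie above 2.

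Of 24 transcription factors of the granulocyte and monocyte choice, 14 were tested. In Cbfb+/MYH11 blood 5 were higher and 1 lower, where 30.5% of all tested genes rose and 5.63% fell. In Cbfb-/- blood 1 was higher and 2 lower, where 19.5% rose and 6.66% fell. The rises in the fusion lay near that share and are no result about these factors as a group. Their median difference was 0.28 in the fusion and 0.00 in the null. Myb, which keeps progenitors cycling, was at 6.92 ± 0.12 in Cbfb+/MYH11 and 5.57 ± 0.17 in WT blood (SD, n = 4 each), and rose by 1.35 (limma adjusted p = 9.11e-06). In Cbfb-/- blood Myb fell by 1.57 (limma adjusted p = 8.49e-05). Myb reached log2 6 on the 4 Cbfb+/MYH11 arrays alone, so it too was tested only through the group in which it was high. Klf5 rose by 1.10 and Myc by 1.07 in Cbfb+/MYH11 blood (limma adjusted p = 7.98e-06 and 1.13e-06), while neither was called in Cbfb-/- blood. Jun, a partner in AP-1, rose in both mutants, by 1.41 and 1.01. Fos, the other AP-1 partner, fell by 1.47 in Cbfb+/MYH11 blood (limma adjusted p = 1.34e-06) and gave 0.11 in Cbfb-/- blood. Runx1, which pairs with Cbfb, gave -0.23 and -0.32 and was not called in either (limma adjusted p = 0.219 and 0.174). Jun and Runx1 were named after their values were seen.

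Of 15 symbols listed for partners and regulators of C/EBP proteins, 13 were tested. Hnrnpe2 and Pcbp2 in that list name the same gene. In Cbfb+/MYH11 blood 5 rose and 1 fell, where 30.5% of all tested genes rose and 5.63% fell. In Cbfb-/- blood 3 rose and 1 fell, where 19.5% rose and 6.66% fell. The rises lay near these shares and are no result about these genes as a group. Atf5, a leucine zipper factor of the ATF group, was at 8.93 ± 0.15 in Cbfb+/MYH11 and 6.73 ± 0.26 in WT blood (SD, n = 4 each), and rose by 2.20 (limma adjusted p = 2.72e-08). In Cbfb-/- blood its value was -0.44, under the fold limit, but with quantile normalization it was -0.66 and called lower (limma adjusted p = 0.0175). Dek, a chromatin protein reported to bind C/EBP alpha, rose by 1.62 in the fusion (limma adjusted p = 1.33e-06). Eif4e, the cap-binding translation factor, rose in both, by 1.15 and 0.79, though with the mean of its probe sets it gave 0.45 and 0.28 and was not called. With quantile normalization its value in Cbfb-/- blood was 0.57, under the fold limit. Trib3, a pseudokinase of the Tribbles family, fell in both, by 0.96 and 0.82 (limma adjusted p = 2.11e-05 and 0.000804). Trib2, a Tribbles member that lowers C/EBP alpha protein in the mouse, rose by 2.18 in Cbfb-/- blood (limma adjusted p = 0.0148), where it was at 6.46 ± 0.30 against 4.27 ± 0.20 in Cbfb+/+ blood (SD, n = 3 each). In the fusion cross Trib2 was at 5.37 ± 0.58 in Cbfb+/MYH11 and 5.05 ± 1.42 in WT blood (SD, n = 4 each) and was not called, with 1.06 in arrays 1 and 2 and -0.42 in arrays 3 and 4. Trib2 reached log2 6 on the Cbfb-/- arrays and on only 2 others, so it was tested only through the group in which it was high, and it was named after its values were seen.

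Markers of other cell types were read in the same groups, and the lists differed in direction. Of 13 basophil and mast cell markers, 12 had a probe set and 5 were tested, which were higher in Cbfb+/MYH11 blood, Cd200r3 by 6.05, Ms4a2 by 4.83, Gata2 by 3.51, Hdc by 3.08 and Cpa3 by 2.59. All of these but Gata2 reached log2 6 on the 4 Cbfb+/MYH11 arrays alone and so were tested only through the group in which they were high. In Cbfb-/- blood 2 of the 5 fell, Cpa3 and Gata2, by 0.78 each, and 0 rose. Of all tested genes, 30.5% rose in the fusion and 6.66% fell in the null. The other 7, among them Mcpt8, Fcer1a, Kit and the mast cell proteases, were under log2 6 on every array, and the median difference over the 12 was 0.016. Mcpt8 was at 4.26 ± 0.20 in Cbfb+/MYH11 and 4.72 ± 0.39 in WT blood, and Kit at 4.61 ± 0.13 in Cbfb+/MYH11 and 5.12 ± 0.62 in WT blood (SD, n = 4 each). The mean level over the list was 5.91 to 6.05 on Cbfb+/MYH11 arrays and 4.27 to 4.66 on WT arrays. It was 3.98 to 4.20 on Cbfb-/- arrays and 4.38 to 4.48 on Cbfb+/+ arrays. Macrophage markers averaged 4.41 to 4.53 on Cbfb+/MYH11 arrays and 5.17 to 6.73 on WT arrays. They averaged 4.53 to 4.63 on Cbfb-/- arrays and 6.23 to 6.26 on Cbfb+/+ arrays, so their mean was lower in both mutants. Of 7 tested macrophage markers 6 fell in the fusion and 7 in the null. Csf1r, the exception in the fusion, gave 0.23 there. But 3 of the 7 (C1qa, C1qb and C1qc) passed the filter only through the Cbfb+/+ arrays. Platelet markers fell as well, 5 of 6 tested in the fusion and 6 of 6 in the null. Among these, Gp1bb passed the filter only through the Cbfb+/+ arrays. Over all tested genes 5.63% fell in the fusion and 6.66% in the null. Liver and yolk sac markers averaged 4.87 to 5.76 on Cbfb+/MYH11 arrays and 5.27 to 7.47 on WT arrays, against 7.37 to 7.63 on Cbfb-/- arrays and 6.22 to 6.25 on Cbfb+/+ arrays. All 6 eosinophil markers with a probe set were under log2 6 on every array. The part of these cell types in the values of Cebpa, Spi1, Cebpg and Mpo was not tested.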

How the data were processed

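Blood RNA was isolated with RNA-Stat 60 and 5 micrograms were biotin-labelled for Affymetrix arrays, per the labels' protocols. The deposited table holds log2 levels that the authors computed by RMA in Affymetrix Expression Console, per the submitters' processing notes, with versions not given in the sources used here. It was used unchanged. Array number limits the precision. RMA shrinks differences of dim probe sets.

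Probe sets were named from the platform table: 34945 carried 1 symbol, 932 several, 9160 none and 64 were array controls. For 34741 the gene was found in the RefSeq table (GRCm38.p6), and 0 symbols changed. A gene was read by its brightest probe set, by mean level. Genes at log2 6 or more on at least 3 of 14 arrays were kept, which left 7392 of 18193. A linear model of 14 arrays in 4 groups was fitted in limma 3.58.1 (R 4.3.3; lmFit, then eBayes), with no covariate, 10 residual and 2.82 prior degrees of freedom, and Benjamini-Hochberg adjustment over all tested genes. The fit was tried on simulated data with independent noise on each array. That setting does not mimic arrays that fall into pairs, so it does not check the p-values for them. A fit over 45037 probe sets without a filter covered dim members, and a fit with the array pairs as groups covered the fusion cross. Promoter windows are RefSeq's.

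The members, gene lists and rules were chosen with earlier results of these data known. The text names every member, up to 4 genes of each list of related genes with the smallest adjusted p in either cross, and for each tested member the 5 genes of highest Pearson correlation. Marker genes, untested granule proteases and genes said to be named after their values were seen are outside this rule.

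Arrays of the fusion cross with the same number deviated together from their group means (correlations 0.521, 0.407, 0.499 and 0.499). Arrays of different number within the same array pair did so too (0.446, 0.417, 0.481 and 0.514). What they shared was thus the array pair. The values do not single out the number, by which the replicate block paired arrays. In the null cross the correlations for the same number were 0.034, 0.011 and 0.017, and the arrays share only a number. Alternatives were quantile normalization, arrays centred on their medians, no filter or one at 7, the mean of probe sets, blocks, 6 putative pools, an intensity trend, each cross alone, and each array left out. The block for single probe sets and the scalings within array pairs were added after seeing the data.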

Additional observations from a re-analysis of the deposited data

Results flagged for a closer look

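The effects of the 2 mutants differed, by limma's test of the difference (fusion effect minus null effect), for Cebpa by 3.39 and for Spi1 by 2.04 on the log2 scale. They differed for the brighter Cebpb probe set by 1.28, although neither single effect passed there. Single arrays stood far from the others of their group for the brighter probe set of Cebpd, at 3.02 on Cbfb+/MYH11 array 2, a level in the dim range. They did so for the brightest probe set of Cebpg, at 7.65 on Cbfb+/MYH11 array 4. In these the gap to the nearest array took 0.863 and 0.883 of the range of the group. There were 24 groups of 4 arrays looked at in this way, and chance flags about 1 group in 20.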

How the results depend on the processing

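The replicate block, which pairs arrays by number, changed no call of the 4 tested members. It called 4, 2 and 2 of them in Cbfb+/MYH11, in Cbfb-/- and in the difference. In all, 2753, 2127 and 1899 genes were called. In the fit over single probe sets the block ended the call of Cebpa in Cbfb-/- blood (limma adjusted p = 0.0579). Main counts were 2671, 1935 and 1548. With each array left out they ranged over 2258 to 3014, 1551 to 2080 and 1296 to 1686 genes, and over 4 to 4, 1 to 3 and 2 to 2 members. With 6 putative pools, limma called 18, 0 and 0 genes and 0, 0 and 0 members, with 2152, 336 and 571 genes at an unadjusted p under 0.05. The mean of probe sets gave 1701 genes in Cbfb+/MYH11. A filter at 7 gave 1031 genes and 1 member for the difference, since Spi1 does not pass it. Quantile normalization gave 1286 higher and 1074 lower genes in Cbfb+/MYH11, against 2255 and 416, and 991 and 917 in Cbfb-/-, against 1443 and 492. With arrays centred on their medians, Cebpb rose in Cbfb+/MYH11 (0.68, limma adjusted p = 0.0419). Signs turned for values near 0 that were not called. With quantile normalization these were Btk in Cbfb+/MYH11 (-0.12), Itgb2l (-0.15) and Fos (-0.13) in Cbfb-/-, the dim Cebpg probe set (0.12 and 0.053), the second Cebpd probe set in Cbfb-/- (0.070) and the difference for Csf3r (0.0011). With centred arrays they were the same Cebpg (0.11 and 0.024) and Cebpd (0.035) probe sets and the differences for Csf3r (0.00086) and Gfi1 (0.0081). With 1 array left out in turn, values spanned 0 for the differences of Tyrobp (-0.32 to 0.35) and Mpo (-0.0056 to 0.19), Btk in Cbfb+/MYH11 (-0.083 to 0.25) and Itgb2l in Cbfb-/- (-0.12 to 0.16). Apart from the construction of a fit, the cause was not tested. Signal near background limits Cebpb, Cebpd, Csf3r and Gfi1.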

Other observations

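The wild-type littermates of the 2 crosses did not stand alike for these genes, which bears on any level set across crosses. Mpo was at 7.79 ± 0.19 in Cbfb+/+ (SD, n = 3) and at 6.86 ± 0.06 in WT blood (SD, n = 4), without overlap. Cebpa was at 6.06 ± 0.11 and 5.77 ± 0.35, and Spi1 at 6.09 ± 0.19 and 5.53 ± 0.43, in the same groups, with WT arrays 3 and 4 below WT arrays 1 and 2 for both genes. No test was run on these differences.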
